A study of Homo sapiens with 18 samples.

Results

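The Fanconi anemia and homologous recombination genes were followed here as a group of 31 genes in the cisplatin-sensitive ovarian carcinoma cell line A2780 and in Acis (A2780cis), the resistant line that was derived from it. The genes were taken from the table of RNA-seq counts by their names, from a list of factors of interstrand crosslink repair and homologous recombination, and all 31 were among the 23622 genes of the table. The list was chosen with earlier results of these data known. All 31 also passed the filter on low counts that 15760 genes passed.

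Cisplatin binds neighboring guanines, mostly within one strand, and a smaller part of its lesions joins both strands of the DNA. Such an interstrand crosslink stops the replication fork, where the Fanconi anemia core complex, with its E3 ligase FANCL and the E2 enzyme UBE2T, attaches ubiquitin to the FANCD2-FANCI clamp, nucleases recruited through the scaffold SLX4 cut around the lesion, and the break that is left is repaired by homologous recombination. In recombination the ends are resected, BRCA1 and PALB2 bring BRCA2 to the resected end, and BRCA2 and the members of the BCDX2 and CX3 complexes (RAD51B, RAD51C, RAD51D, XRCC2 and XRCC3) prepare that end for the invasion of the sister chromatid. In ovarian cancer, loss of BRCA1 or BRCA2 is known to make tumors sensitive to platinum drugs.

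RNA-seq was performed on 4 groups of 3 libraries: untreated A2780, A2780 after 3 h in 200 µM cisplatin, untreated Acis, and Acis after the same treatment. Acis cells were obtained by chronic exposure of A2780 to rising cisplatin concentrations and were given low-dose cisplatin at intervals during culture, so that they represent 1 derived line and not resistance in general. The 3 libraries of a group came from wells seeded side by side, and all 12 were sequenced in 1 lane. p-values therefore measure the spread between such libraries, which may be mostly technical. ATAC-seq, which cuts open chromatin with a transposase, is represented by 1 list of peaks for each of the same 4 conditions.

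The libraries held between 4130644 and 5072216 counts, and a listed gene had between 46 and 1222 counts in a library. Values are given as normalized counts, that is, counts scaled with TMM factors to the mean effective library size of 4574828. As a check of the treatment, the immediate early gene FOS was higher after cisplatin by 3.49 (log2) in A2780 and by 1.87 in Acis. Of the 6 genes set for this check, 5 rose and MDM2 fell (-0.22) in A2780, and all 6 rose in Acis (MDM2 by 0.15). Of the carcinoma markers, EPCAM was weak in both lines, with at most 6 counts in a library. KRT8 had 12 to 26 counts in the A2780 libraries and 2 to 8 in the Acis libraries. KRT18 went the other way, with 19 to 41 counts in the A2780 libraries and 124 to 155 in the Acis libraries. KRT7, KRT19, PAX8, WT1, MUC16 and CDH1 were not among the named genes of the count table. The stromal genes ACTA2 (504 to 618 counts in the A2780 libraries, 16 to 28 in the Acis libraries) and COL1A1 (629 to 967 and 5 to 21) also differed between the lines. The part of all these markers in any difference between the lines was not tested. In bulk RNA, fewer cells that express a gene and less RNA per cell cannot be told apart.

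For orientation, the 250 bases before a RefSeq start are shown for BRCA2 and FANCC. BRCA2 had the largest fall of the group between the untreated lines. FANCC rose, and its annotated outer start had a peak in only some of the ATAC-seq lists. The BRCA2 sequence is chr13:32315258-32315507 on the plus strand and the FANCC sequence is chr9:95317710-95317959 on the minus strand (both GRCh38.p14, RefSeq, written 5′ to 3′). Capitals mark the letters of short motifs known from promoters, found on either strand: TTTCCCGC and TTTGGCGC (E2F), TTTGAA (the cell cycle homology region), CCGGAAGT (ETS), with CCAAT searched as well.
BRCA2: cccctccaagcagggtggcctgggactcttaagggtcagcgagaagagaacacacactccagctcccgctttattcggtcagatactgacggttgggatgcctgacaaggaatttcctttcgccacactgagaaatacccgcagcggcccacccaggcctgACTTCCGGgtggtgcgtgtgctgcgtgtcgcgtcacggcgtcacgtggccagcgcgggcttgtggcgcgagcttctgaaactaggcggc
FANCC: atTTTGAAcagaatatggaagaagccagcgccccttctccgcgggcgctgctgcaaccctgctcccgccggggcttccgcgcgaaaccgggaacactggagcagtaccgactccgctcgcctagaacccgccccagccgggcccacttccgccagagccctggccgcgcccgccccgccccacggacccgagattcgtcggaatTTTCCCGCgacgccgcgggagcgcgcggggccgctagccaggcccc
The capitals in BRCA2 are the ETS letters read on the opposite strand, 89 to 82 bases before the start. The capitals in FANCC are TTTGAA at 248 to 243 bases and TTTCCCGC at 46 to 39 bases before the start. FANCC had another RefSeq start at chr9:95317254, and the 250 bases before it held none of these motifs. A sequence was held for 29 of the 31 genes, with 300 bases for each RefSeq start, 50 of them after the start. A gene with several starts counted as holding a motif if any of its sequences held it. TTTCCCGC was found in 3 of these 29 (FANCC, FANCD2 and XRCC2), against 1.98% of 27305 genes with a promoter sequence and 2.69% of the 15345 coding genes among them. TTTGGCGC was found in 0 of the 29 (0.795% of all genes and 1.11% of coding genes). CCGGAAGT was found in 5 (FANCD2, EME1, PALB2, BRCA2 and RAD50; 4.95% of all and 7.11% of coding genes), TTTGAA in 3 (18.2% and 15.9%) and CCAAT in 11 (39.7% and 42.5%). These are matches of letters and are not evidence of a bound factor.

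Per length of exon, the genes spanned a wide range in untreated A2780. RBBP8, the CtIP protein that starts resection, stood at 28.6 RPKM (counts scaled by exon length and by library size) and UBE2T at 28.2, followed by RAD54L, a motor protein of strand exchange, at 20.4. The difference between RBBP8 and UBE2T was within their spread, and in the cisplatin-treated libraries of both lines UBE2T stood first. The lowest levels were those of RAD50 (1.28), FANCL (1.41) and RAD51B (1.64). Exon length was taken over all annotated isoforms, which lowers the level of genes with long rare isoforms: FANCL counts as 38.0 kb of exon. RAD50 shares 76.9% of its exon bases with an annotated readthrough gene on the same strand, so its low counts, 46 to 93 per library, are uncertain throughout.

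The first comparison asked how the genes responded to cisplatin in the sensitive line. In A2780, 17 of the 31 genes fell after 3 h of cisplatin and 2 rose, at an adjusted p under 0.05 in edgeR's quasi-likelihood test over all genes. Over all 15760 tested genes, 28.2% fell and 21.2% rose. The median log2 fold change of the 31 genes was -0.24 and that of all tested genes was -0.01. Libraries scaled to their total counts alone, which moves the median of all genes from -0.01 to 0.10, gave 14 lower and 5 higher of the 31 genes, and 3060 lower and 5302 higher of all tested genes, so that over all genes the balance turned over. None of the 31 passed the stricter rule that also asks for a 2-fold change (log2 of at least 1), in edgeR or in DESeq2 and with or without adjustment, against 5.62% of all genes.

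The fall was largest for BRCA2, a mediator of recombination bound by PALB2. Its normalized counts were 877, 843 and 826 in the untreated A2780 libraries and 433, 438 and 456 in the treated ones. The 2 groups were far apart, and the level fell to 0.52-fold (log2 fold change -0.94 ± 0.06 SE, edgeR adjusted p = 1.16e-12). BRCA1, the ubiquitin ligase that promotes resection and recruits PALB2, had 1043, 987 and 1023 normalized counts without and 718, 773 and 736 with cisplatin. All treated libraries were below all untreated ones, a fall to 0.729-fold (edgeR adjusted p = 4.25e-10). Its partners differed among themselves. BRIP1, a helicase bound by BRCA1, had 525, 539 and 598 normalized counts without and 384, 402 and 392 with cisplatin (0.711-fold, edgeR adjusted p = 3.56e-08). BARD1, which forms the ligase with BRCA1, had 307, 313 and 301 without and 254, 270 and 250 with cisplatin. This was a smaller shift without overlap (0.839-fold, edgeR adjusted p = 0.00221), and its call was lost with total counts as library size (log2 fold change -0.14 in place of -0.25, adjusted p = 0.0894). PALB2, the link between BRCA1 and BRCA2, had means of 317 ± 12.3 and 324 ± 27.2 (SD, n = 3), and its groups overlapped.

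In the core complex and its E2, 5 of 9 genes fell and 1 rose. FANCL, the catalytic subunit, had 236, 255 and 244 normalized counts without and 163, 178 and 144 with cisplatin. That is 0.661-fold, with no overlap (edgeR adjusted p = 3.74e-07). FANCM, the DNA translocase that anchors the complex, had 233, 249 and 228 without and 161, 139 and 190 with cisplatin, 0.689-fold (edgeR adjusted p = 2.57e-05). FANCC had 399, 410 and 395 without and 323, 319 and 330 with cisplatin, 0.806-fold (edgeR adjusted p = 2.52e-05), and the treated libraries lay close together. FANCB, an X-linked subunit that binds FANCL, overlapped: 137, 139 and 125 normalized counts without and 100, 129 and 96.3 with cisplatin. Its call (0.808-fold, edgeR adjusted p = 0.0202) was lost when any one of A2780 control replicates 1 and 2 or A2780 cisplatin replicates 1 and 3 was left out, with adjusted p-values up to 0.109, in DESeq2 and with total counts as library size. FANCF, the small adaptor, fell to 0.725-fold. FANCG rose to 1.11-fold (edgeR adjusted p = 0.0266), a call that was lost without A2780 control replicate 2 or 3 or A2780 cisplatin replicate 1 or 2 (adjusted p up to 0.102) and in DESeq2. FANCA (0.945-fold), FANCE (1.11-fold) and UBE2T (0.992-fold) did not pass the test.

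Both proteins of the ubiquitinated clamp fell. FANCI had 1140, 1127 and 1174 normalized counts without and 933, 998 and 965 with cisplatin, 0.842-fold (edgeR adjusted p = 2.13e-06). The groups did not overlap, and FANCD2 behaved alike, at 0.811-fold. Of the 5 crosslink nucleases and their scaffold, only SLX4 passed the test in edgeR. SLX4 had 341, 333 and 363 without and 294, 238 and 282 with cisplatin, 0.787-fold (edgeR adjusted p = 0.000493). The structure-specific pair MUS81 (1.03-fold) and EME1 (0.919-fold), the nuclease FAN1 (0.961-fold) and the exonuclease DCLRE1A (0.925-fold) did not pass, and the groups of all 4 overlapped.

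The BCDX2 and CX3 complexes split. XRCC2 had 550, 561 and 536 normalized counts without and 431, 463 and 435 with cisplatin, 0.806-fold with no overlap (edgeR adjusted p = 3.16e-06). RAD51D, its direct partner, had 256, 253 and 241 without and 229, 214 and 193 with cisplatin, 0.847-fold (edgeR adjusted p = 0.008). The RAD51D call was lost without A2780 cisplatin replicate 3 (adjusted p = 0.0723), in DESeq2 and with total counts as library size. XRCC3 rose to 1.12-fold (edgeR adjusted p = 0.0327), and this call was lost without any one of A2780 control replicates 1, 2 and 3 or A2780 cisplatin replicate 1 (adjusted p up to 0.183) and in DESeq2. RAD51C (1.06-fold) and RAD51B (0.904-fold) did not pass. In end resection, NBN of the MRE11 complex had 791, 786 and 801 without and 659, 685 and 682 with cisplatin (0.852-fold, edgeR adjusted p = 0.00011) and RBBP8 fell to 0.843-fold, while RAD50 (0.855-fold) did not pass the test. BLM, the helicase that dissolves joint molecules, had 448, 495 and 456 without and 324, 340 and 352 with cisplatin, 0.726-fold without overlap (edgeR adjusted p = 9.9e-08). RAD54L, at 0.953-fold, did not pass.

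**Figure D1:**
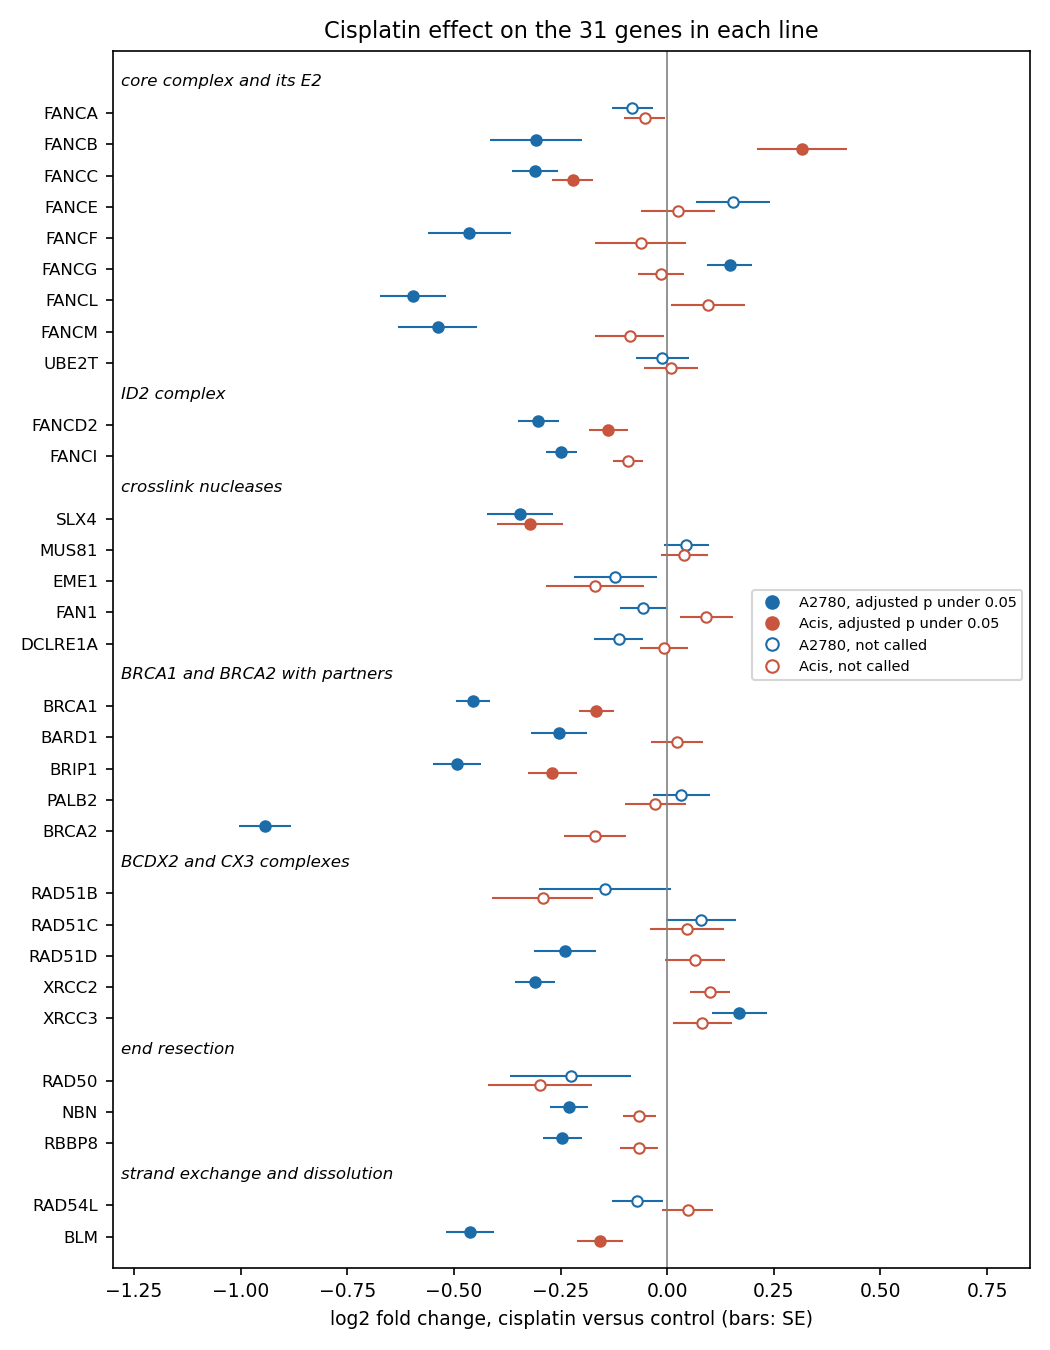
Log2 fold change after cisplatin (x axis) for each of the 31 genes, grouped by role, in A2780 (blue) and Acis (red), with bars of 1 SE. Filled points passed an adjusted p under 0.05 in edgeR: 19 in A2780, with BRCA2 farthest left at -0.94, and 7 in Acis, with FANCB the only filled point to the right of 0.

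The same comparison in the resistant line gave fewer and smaller changes. In Acis, 6 of the 31 genes fell and 1 rose, against 12.4% and 9.35% of all tested genes. The median log2 fold change of the 31 was -0.05, and that of all tested genes was 0.01. The median of the 31 moved to -0.02 without Acis cisplatin replicate 2. Scaled to total counts alone, 4 fell and 2 rose with a median of 0.00, and over all genes 1411 fell and 2346 rose. None passed the stricter rule, in edgeR or in DESeq2 and with or without adjustment, against 2.01% of all genes.

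All 6 genes that fell in Acis were among the 17 that fell in A2780. How many of all tested genes lower in Acis were also lower in A2780 was not counted. This overlap therefore cannot be called particular to the listed genes. BRIP1 had 496, 472 and 527 normalized counts in the untreated Acis libraries and 394, 429 and 415 in the treated ones (0.83-fold, edgeR adjusted p = 0.000953). FANCC had 501, 535 and 544 without and 457, 440 and 457 with cisplatin (0.858-fold, edgeR adjusted p = 0.00112). Neither gene's groups overlapped. SLX4 had 400, 339 and 339 without and 270, 283 and 311 with cisplatin, 0.8-fold, close to its ratio in A2780 (edgeR adjusted p = 0.00277). BRCA1 had 916, 911 and 933 without and 798, 805 and 857 with cisplatin, 0.891-fold without overlap (edgeR adjusted p = 0.00368). BLM (460, 486 and 495 without, 416, 440 and 434 with cisplatin) and FANCD2 (0.908-fold) were nearer to the threshold, at edgeR adjusted p = 0.034 and 0.0298. Both of these calls were lost without Acis control replicate 2 or 3 or Acis cisplatin replicate 1, that of FANCD2 also without Acis cisplatin replicate 2, with adjusted p-values up to 0.155, and both in DESeq2 and with total counts as library size.

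FANCB went the other way in Acis, with 109, 129 and 121 normalized counts without and 166, 144 and 137 with cisplatin. The groups did not overlap (1.24-fold, edgeR adjusted p = 0.0322), but the call was lost without Acis control replicate 1 or 3 or Acis cisplatin replicate 1 (adjusted p up to 0.209) and in DESeq2. BRCA2, the gene with the largest fall in A2780, had 397, 491 and 479 normalized counts without and 386, 457 and 371 with cisplatin in Acis. Its groups overlapped and it did not pass (0.889-fold, 95% interval of the log2 fold change -0.32 to -0.02, edgeR adjusted p = 0.0996). The interval of its fall in A2780, -1.07 to -0.82, lay apart from it.

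**Figure D2:**
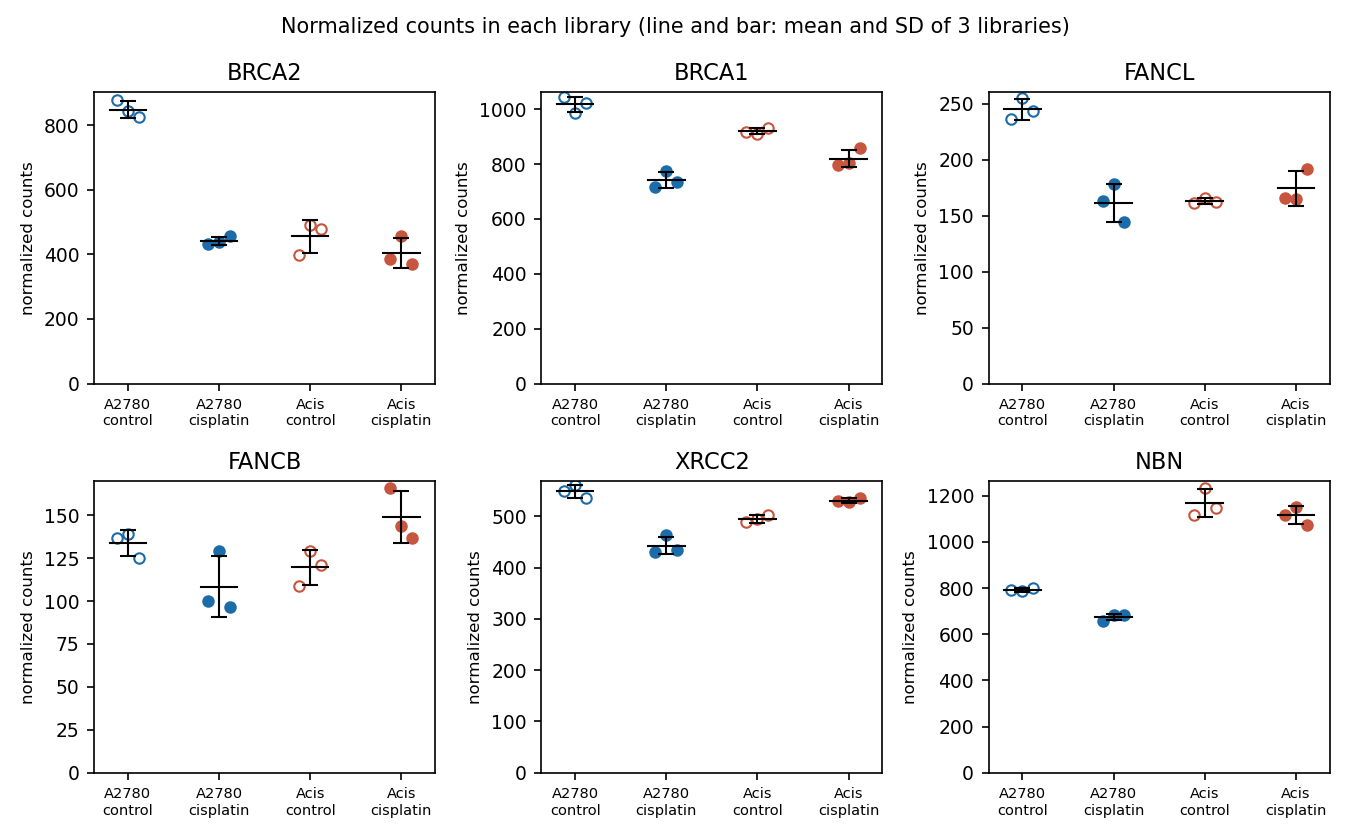
Normalized counts (y axis, from 0) of 6 genes in each of the 12 libraries, by line and treatment (open points untreated, filled points cisplatin), with the mean and SD of 3 libraries. BRCA2 in treated A2780 (mean 442) lies at the level of both Acis groups (456 and 405), and NBN is higher in every Acis library than in every A2780 library.

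Whether the lines differed in their response was tested directly by the interaction, the cisplatin effect in Acis minus that in A2780. Both lines were given the same dose for the same time, but the paper reports less cisplatin damage in Acis at that dose. As one possibility, the paper proposes that the weaker response of the resistant cells follows from this lower damage. Line and damage load cannot be told apart in this design, and the part of damage load in the interaction was not tested. For 10 of the 31 genes the effect was more positive in Acis (13.4% of all tested genes). For none was it more negative (5.48% of all genes). At an unadjusted p under 0.05 in edgeR the counts were 15 and 0, against 3092 and 1724 of the 15760 tested genes. DESeq2 gave 5 and 0 of the 31 genes, against 1100 and 298 over all genes. Total counts as library size gave 7 and 1, the 1 being FANCG. Over all genes, total counts as library size gave 1463 more positive and 1572 more negative differences in place of 2113 and 863. The median difference was 0.15 for the 31 genes and 0.03 for all tested genes.

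The difference was 0.77 ± 0.10 (log2, SE) for BRCA2 (edgeR adjusted p = 2.54e-06), 0.41 ± 0.07 for XRCC2 (adjusted p = 6.77e-05), 0.69 ± 0.12 for FANCL (adjusted p = 0.000121), 0.29 ± 0.06 for BRCA1 (adjusted p = 0.000724) and 0.62 ± 0.15 for FANCB (adjusted p = 0.00442). These 5 differences passed under all 19 other settings tried. In Acis, XRCC2 had 488, 494 and 503 normalized counts without and 530, 527 and 535 with cisplatin, so its treated libraries were all above the untreated ones, though the change within Acis did not pass the test (edgeR adjusted p = 0.171). FANCL in Acis had 161, 166 and 162 without and 166, 165 and 192 with cisplatin, with overlap, and all 6 libraries were below the 3 untreated A2780 libraries. BLM (0.30 ± 0.08, edgeR adjusted p = 0.00616) and FANCM (0.45 ± 0.12, adjusted p = 0.011) passed under every setting but DESeq2. FANCM in Acis had 266, 288 and 308 without and 275, 293 and 242 with cisplatin, with overlap.

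BARD1 (0.28 ± 0.09, edgeR adjusted p = 0.0299), FANCI (0.16 ± 0.05, adjusted p = 0.0305) and RAD51D (0.30 ± 0.10, adjusted p = 0.0345) were near the threshold and passed in 8, 9 and 8 of 19 other settings. The BARD1 call was lost without A2780 control replicate 1 or 2, A2780 cisplatin replicate 1 or 3, Acis control replicate 1, or Acis cisplatin replicate 1 or 2 (adjusted p up to 0.0872). That of FANCI was lost without A2780 control replicate 3, A2780 cisplatin replicate 1 or 3, Acis control replicate 1 or Acis cisplatin replicate 1 (up to 0.0775), and that of RAD51D without A2780 control replicate 1 or 2, A2780 cisplatin replicate 3, Acis control replicate 2 or 3, or Acis cisplatin replicate 1 or 2 (up to 0.119). In Acis, BARD1 had 347, 361 and 362 without and 376, 383 and 328 with cisplatin, FANCI had 1194, 1259 and 1220 and then 1148, 1138 and 1158, and RAD51D had 288, 256 and 244 and then 275, 280 and 270. Only FANCI kept its 2 groups apart. RBBP8, NBN and BRIP1 just missed the threshold (edgeR adjusted p = 0.051, 0.0513 and 0.0519). The remaining genes included SLX4, whose difference was 0.02 with a 95% interval of -0.20 to 0.25, and MUS81, with -0.01 and an interval of -0.16 to 0.15.

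The lines were then compared without treatment. In untreated Acis 9 genes were higher than in untreated A2780 and 8 were lower, against 28.2% and 30.6% of all tested genes, with a median of 0.06 over the 31 genes and -0.01 over all. The median of the 31 was 0.03 without A2780 control replicate 2 or any one of Acis control replicates 1, 2 and 3. None passed the stricter rule (19.1% of all genes), in edgeR or in DESeq2 and with or without adjustment, and RAD51B and BRCA2 came closest. BRCA2, with values given above, stood at 0.536-fold in untreated Acis (log2 fold change -0.90 ± 0.06 SE, edgeR adjusted p = 7.21e-13), and the highest Acis library, 491, lay well below the lowest A2780 library, 826. RAD51B, a subunit of the BCDX2 complex, had 57.8, 57.7 and 52.3 normalized counts in A2780 and 97.7, 102 and 116 in Acis. This was the largest rise, 1.87-fold, from few counts (edgeR adjusted p = 1.24e-06).

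NBN had 1118, 1234 and 1149 normalized counts in untreated Acis, all above the 3 untreated A2780 libraries (1.47-fold, edgeR adjusted p = 2.82e-12). FANCC was 1.31-fold higher in Acis without overlap (edgeR adjusted p = 1.13e-07). FAN1, the nuclease that binds ubiquitinated FANCD2, had 652, 665 and 604 in A2780 and 429, 461 and 486 in Acis (0.714-fold, edgeR adjusted p = 4.94e-08), so that every Acis library was lower. FANCL was lower at 0.666-fold, EME1 at 0.761-fold and FANCF at 0.77-fold, and BRCA1, XRCC2 and BRIP1 were lower by at most 10%, as 0.904-, 0.901- and 0.9-fold. The higher genes also included RAD50 (1.49-fold, from the uncertain counts described above), FANCM (1.21-fold), BARD1 (1.16-fold), FANCD2 (1.13-fold), FANCA (1.09-fold) and FANCI (1.07-fold). The calls of FANCM (without Acis control replicate 3, adjusted p = 0.0575), BRIP1 (without A2780 control replicate 3 or Acis control replicate 2, up to 0.0991), FANCA (without A2780 control replicate 1 or 3 or Acis control replicate 1 or 2, up to 0.203) and FANCI (without A2780 control replicate 1 or 2 or Acis control replicate 2 or 3, up to 0.178) depended on single libraries, and those of BRIP1, FANCA and FANCI were also lost in DESeq2.

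For some of these genes the neighborhood had moved as well. The 32 tested genes that start within 5 Mb of BRCA2 on chromosome 13 had a median log2 fold change of -0.88 between the untreated lines, and 90.6% of them were below 0. Over the whole chromosome, 269 genes had a median of -0.72. For NBN, on chromosome 8, the median of 39 neighbors was 0.43 beside 0.56 for the gene itself. RAD51B (0.90 beside 0.09), RAD50 (0.57 beside 0.03), FANCL (-0.59 beside -0.01) and FAN1 (-0.49 beside 0.00) had neighbors with medians near 0. Over the 31 genes, 27 had a neighbor median within 0.2 of 0. Beside BRCA2 and NBN, the exceptions were FANCA, whose neighbors (0.23) were further from 0 than the gene itself (0.13), and FANCB, which stood at -0.17 without passing the test beside a median of 0.37. Within 2 Mb, where there are fewer neighbors, the 4 of FANCL had a median of -0.18 and all were below 0, and the 13 of BARD1, a gene higher in Acis, had -0.46 and were all below 0. The number of gene copies was not measured, and its part in these differences was not tested.

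**Figure D3:**
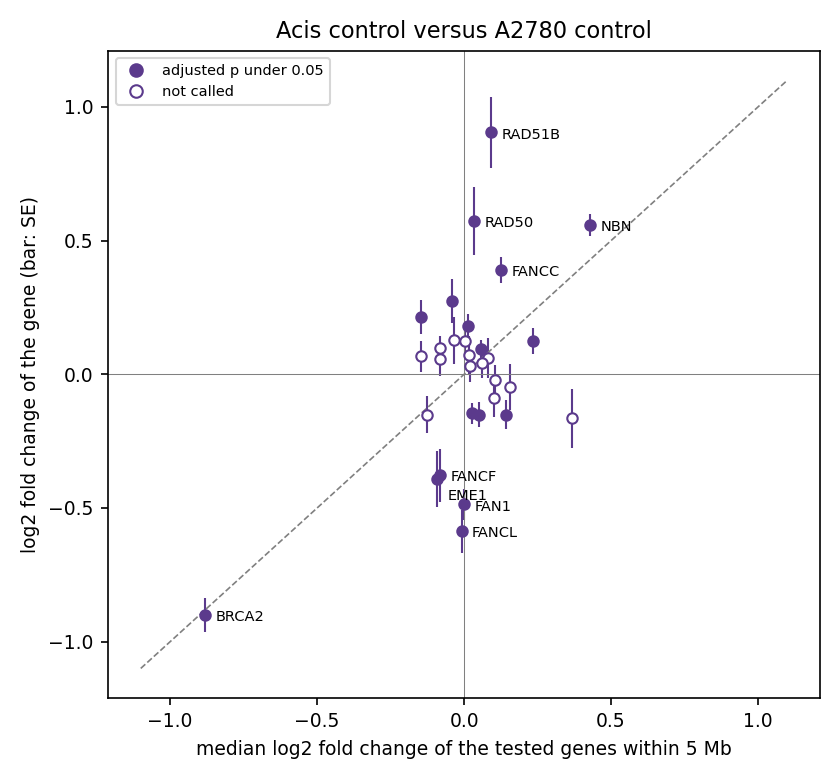
Log2 fold change of each of the 31 genes between untreated Acis and untreated A2780 (y axis, bars of 1 SE) against the median of the tested genes that start within 5 Mb (x axis); the dashed line marks equality and filled points passed the test. BRCA2 lies on the line at about -0.90, NBN near it at 0.56, and RAD51B, RAD50, FANCL and FAN1 lie away from it, above or below neighbors with medians near 0.

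Under cisplatin the lines differed in more of the genes. In treated Acis 17 genes were higher than in treated A2780 and 4 were lower, against 31.8% and 31.2% of all tested genes. The median was 0.15 for the 31 genes and 0.00 for all. None passed the stricter rule, in edgeR or in DESeq2 and with or without adjustment, against 19.2% of all genes. This comparison shares its libraries with the cisplatin comparisons above, so its counts are not separate evidence.

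NBN had 1118, 1153 and 1075 normalized counts in treated Acis, 1.65-fold above treated A2780 (edgeR adjusted p = 1.52e-14). FANCC stood at 1.39-fold (adjusted p = 7.02e-09), FANCM at 1.65-fold (adjusted p = 7.71e-08) and BARD1 at 1.41-fold (adjusted p = 1.36e-07). In all 4 genes the lowest treated Acis library was above the highest treated A2780 library. BRCA2, which had the largest fall between the untreated lines, no longer passed (0.915-fold, 95% interval of the log2 fold change -0.27 to 0.02, edgeR adjusted p = 0.12). BRCA1 and XRCC2 had been lower in untreated Acis and were higher under treatment, at 1.1-fold and 1.2-fold (edgeR adjusted p = 0.00396 and 2.14e-05); the BRCA1 call under treatment was lost in DESeq2 and with total counts as library size, and the XRCC2 call between the untreated lines was lost in DESeq2 (adjusted p = 0.0984). FAN1 had 581, 656 and 614 in treated A2780 and 452, 514 and 499 in treated Acis, and it stayed lower at 0.791-fold (edgeR adjusted p = 9.01e-06). The other 3 lower genes were EME1 (0.736-fold), PALB2 (0.863-fold) and XRCC3 (0.885-fold). The number of lower genes was 2 without A2780 cisplatin replicate 1 and 2 without Acis cisplatin replicate 1, where PALB2 and XRCC3 did not pass. RAD54L, at 1.11-fold, passed although its groups overlapped, and its call held in 10 of 20 other settings.

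Gene length went along with the response over all genes and over these. Of the 31 genes, 17 span at least 50 kb from annotated start to end, and 13 of these 17 (76.5%) fell in A2780, against 61.7% of the 4969 tested genes of that length. The medians were -0.30 for both. Of the 14 shorter genes 4 fell and 2 rose, against 12.8% lower and 29.7% higher of the 10739 shorter tested genes, and the medians were -0.04 and 0.10. In Acis 5 of the 17 long genes fell (29.4%, against 30.4% of all long genes), with medians of -0.09 and -0.11. The interaction was called for 8 of the 17 long genes (47.1%, against 26.9%), and both medians were 0.18.

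BRCA2 spans 85.2 kb and FANCL 82.2 kb, and both fell by more than the long genes' median in A2780. RAD51B, the longest at 910 kb, did not pass the test there. FANCF, a gene of 3.29 kb in a single exon, fell by 0.46 on the log2 scale, although short genes as a whole had a positive median. Across the 31 genes, log10 of length and the log2 fold change had Pearson's r = -0.385 and Spearman's rho = -0.476 in A2780 and -0.303 and -0.375 in Acis; the points share their libraries, and these are descriptions with n = 31. Pairs of guanines, the main target of cisplatin, counted without overlap, occurred on the transcribed strand at 29.4 per kb in FANCL to 82.5 per kb in MUS81, so that the number in a gene followed mostly its length, from 157 in FANCF to 37819 in RAD51B.

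**Figure D4:**
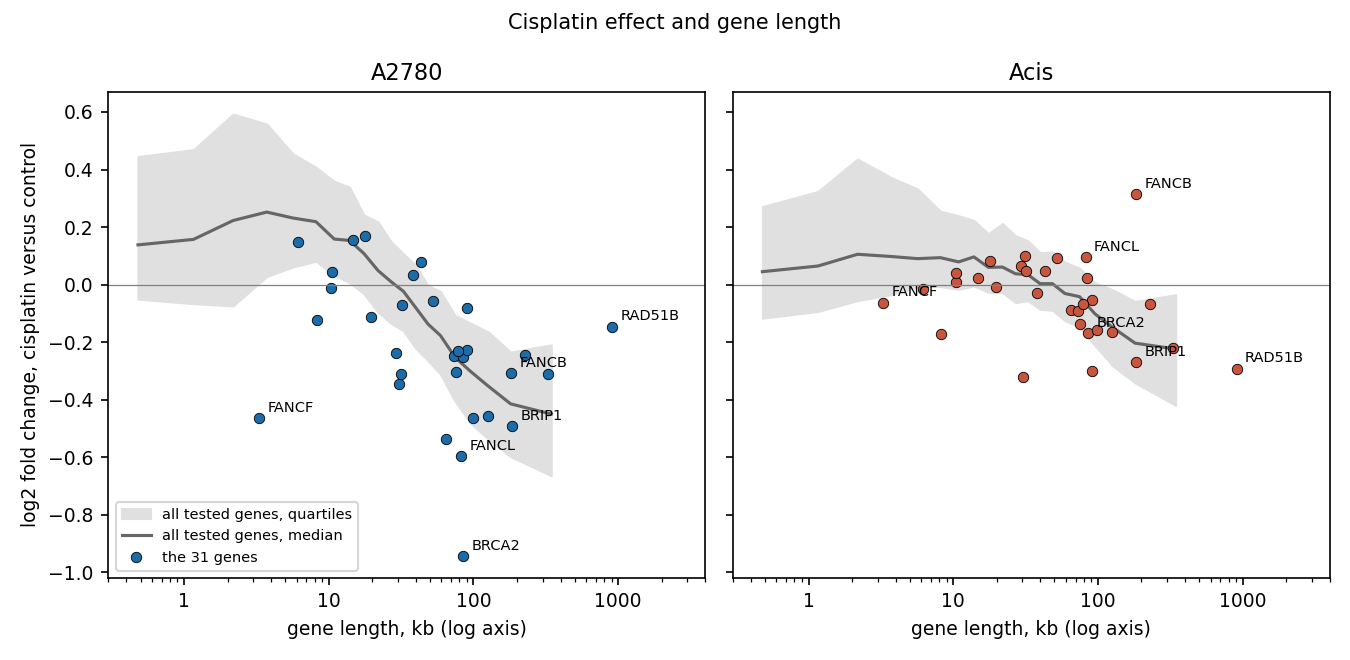
Log2 fold change after cisplatin (y axis) against gene length in kb (log axis) for the 31 genes (points) in A2780 and Acis; the grey line and band are the median and quartiles of all tested genes in 20 classes of equal size. In A2780 BRCA2 (-0.94), FANCL (-0.60) and FANCF (-0.46) are among the points below the band, and in Acis FANCB (0.32) lies above it.

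In A2780, further factors of the same pathways had a median nearer to 0. Of 40 other genes of crosslink repair and recombination 39 were tested (SLX1A was not among the named genes of the count table). After cisplatin 9 rose and 12 fell (23.1% and 30.8%, against 21.2% and 28.2% of all tested genes), with a median of -0.04. In Acis 4 rose and 3 fell (10.3% and 7.69%, against 9.35% and 12.4% of all tested genes). Between the lines 12 were higher and 12 lower in untreated Acis (30.8% each, against 28.2% and 30.6% of all tested genes). In treated Acis 15 were higher and 8 lower (38.5% and 20.5%, against 31.8% and 31.2%). Of the 39 genes, 3 passed the stricter rule between the treated lines, against 19.2% of all tested genes. ABRAXAS1 of the BRCA1-A complex was higher in Acis (log2 fold change 1.03). The nuclease DCLRE1B (170 ± 3.3 normalized counts in treated Acis and 340 ± 6.32 in treated A2780, SD, n = 3) and SWSAP1 (log2 fold change -1.03), a recombination factor, were lower.

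The interaction was more positive in Acis for 8 and more negative for 3 of the 39 (20.5% and 7.69%, against 13.4% and 5.48% of all tested genes). FIGNL1, an ATPase of recombination, fell in A2780 and rose in Acis (log2 fold changes of -0.17 and 0.28, edgeR adjusted p of the difference 0.000585). Its fall in A2780 was near the threshold (edgeR adjusted p = 0.045). RMI1 also fell in A2780 and rose in Acis (-0.195 and 0.317, edgeR adjusted p of the difference 0.000511). MRE11, the nuclease bound by RAD50 and NBN, was lower in untreated Acis, where NBN was higher, at a log2 fold change of -0.99, and it fell in A2780 by 0.31 on the log2 scale. ERCC1, which cuts with ERCC4 at crosslinks, rose in A2780 (0.29) and did not pass in Acis (-0.14), the largest negative difference of this list, at -0.43. Of 22 cell cycle genes, 7 rose and 3 fell in A2780 (31.8% and 13.6%, against 21.2% and 28.2% of all tested genes). In Acis 4 rose and 4 fell (18.2% each, against 9.35% and 12.4%). The summed normalized counts of the cell cycle genes ranged from 20154 to 21306 in the A2780 libraries and from 21385 to 22672 in the Acis libraries, without overlap. MKI67, with the highest counts, had means of 3803 in untreated A2780 and 4852 in untreated Acis (3141 and 4031 with cisplatin). TOP2A had 1873 and 2178 (1443 and 1925 with cisplatin). Of the 22 genes, 8 were higher and 5 lower in untreated Acis (36.4% and 22.7%, against 28.2% and 30.6% of all tested genes). In treated Acis 6 were higher and 5 lower (27.3% and 22.7%, against 31.8% and 31.2%). The median log2 fold changes were 0.03 and -0.002. The part of the cell cycle genes in the differences between the lines was not tested.

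ATAC-seq peaks were present at the promoters of the genes in all conditions, with few exceptions. Within 1 kb of the outermost annotated start, 25 of the 31 genes had a peak in all 4 lists, 3 in some (FANCC, FANCE and MUS81) and 3 in none (FAN1, NBN and RAD51D), against 60.2%, 13.8% and 25.9% of 15685 tested genes. For 8 genes that start lies over 1 kb from the start of the MANE Select transcript, the reference isoform, 109087 bases away in FANCC. At the MANE Select start, a setting added after the data were seen, 30 of the 31 genes had a peak in all 4 lists, against 72.2% of 12104 genes. The exception was FANCE, with a fold enrichment over local background of 10.5 and 4.83 in the A2780 lists without and with cisplatin and 7.44 in treated Acis, and with no peak in the untreated Acis list.

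BRCA2 had a peak over the whole sequence printed above in every list. The peak was chr13:32315042-32316309 in untreated A2780, with a fold enrichment of 13.0, and the values were 9.52 in treated A2780, 12.4 in untreated Acis and 11.0 in treated Acis. FANCC had a peak over part or all of its printed sequence, at 11.6, 7.36, 11.1 and 10.5 in the same order, so that the missing peaks of its outer start had no counterpart there. In A2780 the fold enrichment was lower in the cisplatin list for 30 of the 31 genes, with medians of 16.6 without and 12.3 with cisplatin. The median over all peaks of these lists was also lower, at 9.96 and 8.79, though these peaks were not matched between lists and include more than promoters. In Acis the fold enrichment was lower for 20 of 30 genes, with medians of 17.8 and 16.6 for the genes and 12.8 and 11.0 for all peaks. How many of all promoters were lower in the cisplatin lists was not counted, so these counts cannot be called particular to the 31 genes. There was 1 list per condition, so these values carry no test.

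**Figure D5:**
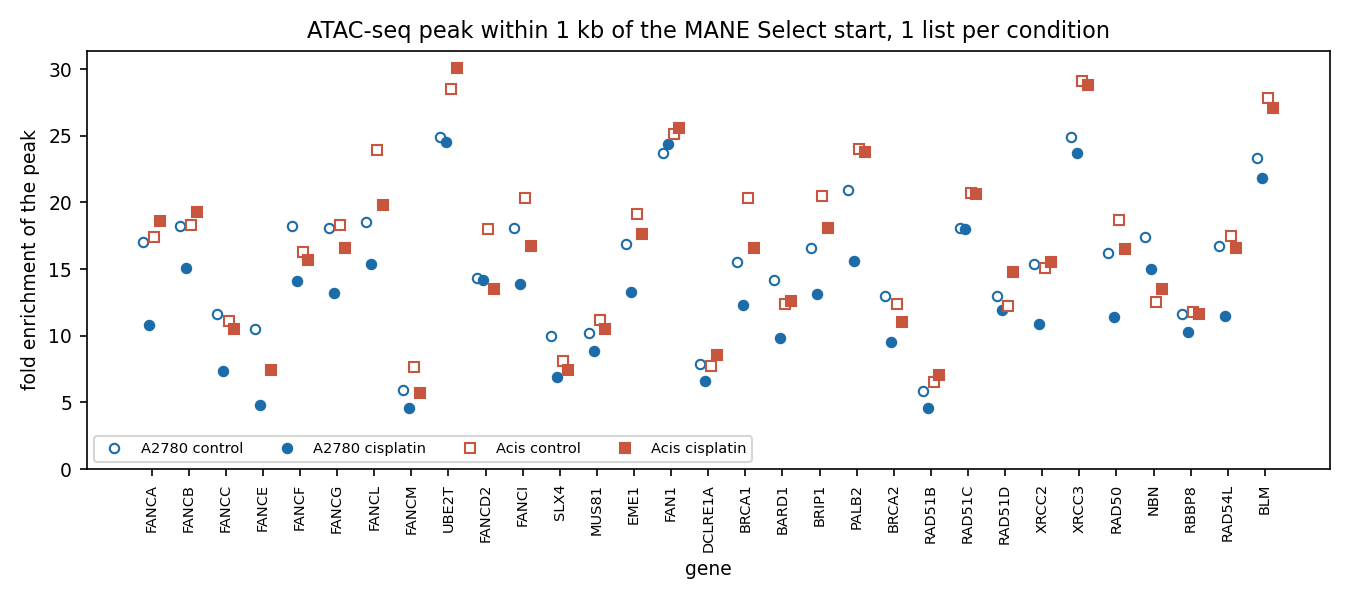
Fold enrichment over local background (y axis) of the ATAC-seq peak within 1 kb of the MANE Select start for each of the 31 genes (x axis), in the lists of A2780 (circles) and Acis (squares), untreated (open) and after cisplatin (filled). The only missing point is FANCE in untreated Acis, and values run from 4.55 (FANCM, treated A2780) to 30.1 (UBE2T, treated Acis).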

How the data were processed

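Per the methods of the authors, RNA-seq reads were aligned with STAR to hg38, PCR duplicates were removed with Picard, and reads were assigned to genes with htseq-count with reverse strandedness; the raw counts were deposited by the authors, and every gene of the table has at least 10 counts over the 12 libraries. The peaks were called with MACS2 after Bowtie2 alignment and kept where all replicates overlapped. Their fold enrichment and −log10 q values were used as deposited by the authors. XR-seq was not analyzed here.

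Counts were analyzed with edgeR 4.0.16 in R 4.3.3: TMM factors of 0.965 to 1.05, the default filter on low counts, group means over 12 libraries (8 residual degrees of freedom), the two-sided quasi-likelihood test and Benjamini-Hochberg adjustment over 15760 genes. The fit was tested on simulated data. Alternatives were DESeq2 1.42.0, other size factors, filters and library sets, a replicate block, merged replicates and each library left out. Gene positions came from GENCODE (hg38) and promoter sequences from RefSeq. Genes with values in every library were those past the interaction and the 4 with the smallest adjusted p in each comparison, and RAD51B, which was added after its values were seen. Of the other pathway genes, at most 6 past both thresholds or the interaction were named, and RMI1 was added after its values were seen. FOS, JUN, CDKN1A, MDM2, GADD45A, ATF3, ACTA2, COL1A1 and the markers served as checks. The 31 genes and the lists were chosen with earlier results of these data known. The variance between 2 replicates of a group was 0.73 to 1.53 times that of counting noise, and several pairs varied less than counting noise. Replicates were kept as separate samples, with the merging of the closest pair as an alternative.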

Additional observations from a re-analysis of the deposited data

Results flagged for a closer look

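The cisplatin effect differed between the lines by the interaction test for 10 of the 31 genes, always with the more positive value in Acis. The paper reports less damage in Acis at the dose used, and the part of damage load in these differences was not tested. The differences, Acis minus A2780 in log2, were 0.77 for BRCA2, 0.41 for XRCC2, 0.69 for FANCL, 0.29 for BRCA1, 0.62 for FANCB, 0.30 for BLM, 0.45 for FANCM, 0.28 for BARD1, 0.16 for FANCI and 0.30 for RAD51D. FANCB alone was called in opposite directions in the 2 lines (-0.31 in A2780 and 0.32 in Acis). These 2 calls held in 13 (A2780) and 15 (Acis) of 20 other settings, and both were lost in DESeq2. Among all tested genes the difference was more positive in Acis for 13.4%, and among those of at least 50 kb for 26.9%; 8 of the 10 genes are of that length, the others being XRCC2 and RAD51D.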

How the results depend on the processing

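Depth, with 46 to 1222 counts per gene and library and 3 libraries per group, limits the smallest changes seen, and the calls near the threshold depend on single libraries. No result changed direction while called. Calls held in all 20 other settings for 14 of 19 genes in A2780, 4 of 7 in Acis, 12 of 17 between untreated and 15 of 21 between treated lines, and in all 19 for 5 of 10 interactions. The count of genes higher after cisplatin in A2780, 2, was 5 with total counts as library size and 0 without a filter, in DESeq2 and with the closest replicates merged, where FANCG and XRCC3 did not pass. The median of -0.24 there became -0.12 with total counts. In Acis the count higher, 1, was 2 with total counts and 0 in DESeq2 and with merged replicates. The interaction count of 10 was 5 in DESeq2, and the count of more negative differences, 0, was 1 (FANCG) with total counts and with a mean of at least 50 counts. Beyond scaling, the cause of these moves was not tested.

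Leaving out 1 library gave 0 to 2 genes higher (0 without A2780 control replicate 2 or 3 or A2780 cisplatin replicate 1) and 15 to 18 lower in A2780, 0 to 1 higher (0 without Acis control replicate 3 or Acis cisplatin replicate 1) and 4 to 8 lower in Acis, 7 to 10 higher and 7 to 9 lower between untreated lines, 15 to 17 higher and 2 to 5 lower between treated lines, and 7 to 12 interactions. Replicate numbers did not pair the samples (correlations of same-numbered deviations of -0.205 to 0.282); with a replicate block the interaction count was 13, the counts were 2 and 17 in A2780 and 1 and 6 in Acis, and they were 9 and 8 and 17 and 4 between lines. With a length limit of 100 kb, 5 of 6 long genes fell in A2780 (68.3% of 2621 tested genes of that length), and 12 of 25 shorter ones (48.0%, against 20.2%). Within 2 Mb the neighbor medians of BRCA2 (-1.16) and NBN (0.87) were larger in size, that of FANCF was -4.19 from 3 neighbors, and those of FANCA (0.23), FANCB (0.25), FANCC (0.24), BARD1 (-0.46), BRIP1 (0.25) and PALB2 (-0.21) also lay over 0.2 from 0. Promoter peaks were counted in 22 to 30 genes per list with other windows, thresholds and overlaps.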
